A study of Rattus norvegicus with 26 samples.

Results

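The Hox, Pbx, Meis and Pknox genes encode homeodomain transcription factors that give cells their position along the body axis. Gene probes of a rat array were chosen by gene names that matched these families, with the brightest probe of each gene, by the mean log2 level over 26 arrays, standing for the gene. The 34 genes described here lay on 40 probes, out of 35287 gene names and 41012 probes on the array. They were 28 Hox genes (6 of cluster A, 8 of cluster B, 7 of cluster C and 7 of cluster D) and 6 cofactor genes, namely *Meis2*, *Meis3*, *Pbx2*, *Pbx3*, *Pbx4* and *Pknox1*. RNA came from rat multipotent adult progenitor cells (rMAPCs), which are bone marrow cells expressing *Oct4* (*Pou5f1*). Both lines were of the Fischer strain and female, and each is a single clone: Cl19 came from a 3 week old animal and 3c3 from embryonic day 18 (E18). Cells of both lines received TGF-β and PDGF-BB in basal medium, and RNA was taken on d0, d2, d4 and d6, with 3 arrays per line and day. The series has no untreated cells of the later days. In changes from d0, the cytokines, the change of medium and the time in culture therefore cannot be told apart. The third source was commercial RNA of primary smooth muscle (called primary SMC RNA here), on 2 arrays. Its label names aortic RNA from Tebu Bio, whereas the study describes RNA of cultured aortic smooth muscle cells and names Cell Applications as its supplier. The study calls its replicates biological, but the labels do not say that they were separate cultures or, for the commercial RNA, separate lots. Where they were not, p-values measure only the spread between these samples.

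Hox genes lie in 4 clusters and are read out along the body axis in their order on the chromosome, with low paralog numbers at the head end and high numbers at the tail end. Alone, Hox proteins bind DNA with little selectivity. Pbx, Meis and Pknox proteins belong to the TALE class of homeodomain proteins, bind next to Hox proteins and sharpen the choice of site. Cultured smooth muscle and fibroblasts are known to keep a Hox code of the part of the body from which they were taken.

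The probes that carried the main results are printed 5′ to 3′ with the place that the array's annotation gives them on the rat assembly rn4. *Hoxb7* (chr10:85020148-85020207, plus strand), *Hoxb6* (chr10:85032800-85032859, plus strand) and *Hoxc6* (chr7:141774182-141774241, plus strand) are shown because their probes resemble each other, which bears on how far their signals can be told apart. Capitals mark bases that differ from the *Hoxb7* probe where the probes align. *Hoxb6* shared 51 of 60 bases with it (85.0%) and *Hoxc6* 47 of 57 aligned bases (82.5%).
Hoxb7: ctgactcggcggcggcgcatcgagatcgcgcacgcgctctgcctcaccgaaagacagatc
Hoxb6: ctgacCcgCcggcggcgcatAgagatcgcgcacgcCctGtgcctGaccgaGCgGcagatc
Hoxc6: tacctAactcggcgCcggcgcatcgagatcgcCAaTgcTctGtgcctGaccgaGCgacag
The next pair is shown because these paralogs differed in opposite directions between rMAPCs and primary SMC RNA. Capitals in *Hoxc9* (chr7:141747571-141747630, plus strand) mark differences from *Hoxd9* (chr3:57313651-57313710, plus strand) over their aligned stretch, where 35 of 47 bases were the same (74.5%).
Hoxd9: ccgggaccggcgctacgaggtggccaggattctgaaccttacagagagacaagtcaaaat
Hoxc9: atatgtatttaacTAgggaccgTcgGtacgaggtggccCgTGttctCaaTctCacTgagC
*Hoxc12* (chr7:141702004-141702063, plus strand) is shown because its change differed between the lines.
Hoxc12: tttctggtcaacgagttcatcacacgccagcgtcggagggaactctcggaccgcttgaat
Over all members, 26 of 561 pairs of probes aligned without gaps over at least 30 bases with more than 60% identity. These arrays cannot show how much one transcript binds to the probe of another, and this was not tested. The array's names are old for some members. The accession of the probe named *Hoxa9* is that of *Hoxa7* in RefSeq, the description of *Hoxc9* names *Hoxc8*, and that of *Hoxd9* names Hox-D8. The probe named *Hoxa9l* is the one described as *Hoxa9*. By position, the probe named *Hoxa9* lies between those of *Hoxa5* and *Hoxa9l*. The names of the array were kept, so the levels given as *Hoxa9* are to be read as those of a probe for *Hoxa7*.

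All levels are log2 intensities after quantile normalization, and "well above background" is the call of the scanner software. Between 43.2% and 61.4% of gene features were well above background per array, and 24442 probes that passed on every array of at least 1 of 9 groups were tested. The 4 days of a replicate shared a slide, while each line and the commercial RNA had a scan day of its own (3 in all), so that level differences between these sources and differences between slides cannot be told apart. The slide of 3c3 replicate 3 had a mean negative control signal of 62.6 to 82.0 against 44.9 to 50.04 on the other arrays. The array labelled Cl19 d2 replicate 1 lay nearer to the 3c3 arrays of d2 (root mean square distance 0.382 to 0.538) than to the other Cl19 arrays of d2 (0.876 to 0.917). Several results that rest on either are given with and without them. The number of arrays limits the precision. In bulk RNA, fewer cells with a transcript and less transcript per cell cannot be told apart.

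The lines and the primary SMC RNA differed in the Hox genes detected. In Cl19, 13, 12, 13 and 14 of the 34 members passed the background call on each array of d0, d2, d4 and d6, respectively. In 3c3 the counts were 12, 12, 10 and 8, and without the slide of replicate 3 they were 16, 12, 15 and 14. Primary SMC RNA had 17. Of all probes on the array, 51.1% to 53.2% passed on each array of a Cl19 day, 42.1% to 49.8% of a 3c3 day and 41.6% in primary SMC RNA. The 3c3 shares include the slide of replicate 3. No share of all probes was worked out without it, so the 3c3 counts without that slide cannot be set against one.

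On d0, *Hoxa9*, *Hoxb6*, *Hoxb7*, *Hoxc9*, *Hoxc12* and *Hoxc13* passed the background call on each array of both lines, along with all 6 cofactors, and Cl19 added *Hoxa5*. On d2 both lines had the same set of 12, namely *Hoxa5*, *Hoxa9*, *Hoxb6*, *Hoxb7*, *Hoxc9*, *Hoxc12* and all 6 cofactors. On d4 Cl19 held *Hoxa5*, *Hoxa9*, *Hoxa10*, *Hoxb6*, *Hoxb7*, *Hoxc9*, *Hoxc12* and all 6 cofactors, and 3c3 held *Hoxa4*, *Hoxb6*, *Hoxb7*, *Hoxc9*, *Hoxc12*, *Meis2*, *Meis3*, *Pbx2*, *Pbx3* and *Pknox1*. On d6 Cl19 held the d4 set and *Hoxc10*. The 3c3 set of d6 was *Hoxb7*, *Hoxc9*, *Hoxc12*, *Meis3*, *Pbx2*, *Pbx3*, *Pbx4* and *Pknox1*. No cluster D gene passed on each array of any rMAPC group. Without the slide of 3c3 replicate 3, however, d0 of 3c3 added *Hoxa4*, *Hoxc4*, *Hoxd9* and *Hoxd13*, each of which was on 2 of its 3 arrays. In the same way, d4 of 3c3 added *Hoxa5*, *Hoxa9*, *Hoxa10*, *Hoxc13* and *Pbx4*. For d6 of 3c3 the added genes were *Hoxa4*, *Hoxa5*, *Hoxa9*, *Hoxb6*, *Hoxc13* and *Meis2*. There *Hoxb6* missed the call at 4.13 on replicate 3 and passed it at 3.10 on replicate 2. The smaller 3c3 sets of d4 and d6 therefore do not show that these genes were lost.

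Primary SMC RNA had another set. It held *Hoxa2*, *Hoxa4*, *Hoxa5*, *Hoxa9*, *Hoxa10*, *Hoxb2*, *Hoxb6*, *Hoxb7*, *Hoxc6*, *Hoxd4*, *Hoxd9* and *Hoxd13*, with all cofactors but *Pbx4*. By cluster, this was 5 genes of A, 3 of B, 1 of C and 3 of D. Cl19 on d6 had 3, 2, 3 and 0. Over the 24 rMAPC arrays, *Hoxb7*, *Hoxc9*, *Hoxc12*, *Meis3*, *Pbx2*, *Pbx3* and *Pknox1* were well above background on all of them. Members on no rMAPC array were *Hoxa2*, *Hoxb1*, *Hoxb3*, *Hoxb13*, *Hoxd4*, *Hoxd10* and *Hoxd12*, and 5 of these 7 were on no array at all (*Hoxa2* and *Hoxd4* were on both arrays of primary SMC RNA). A probe that is not well above background does not show that its gene was silent.

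**Figure D1:**
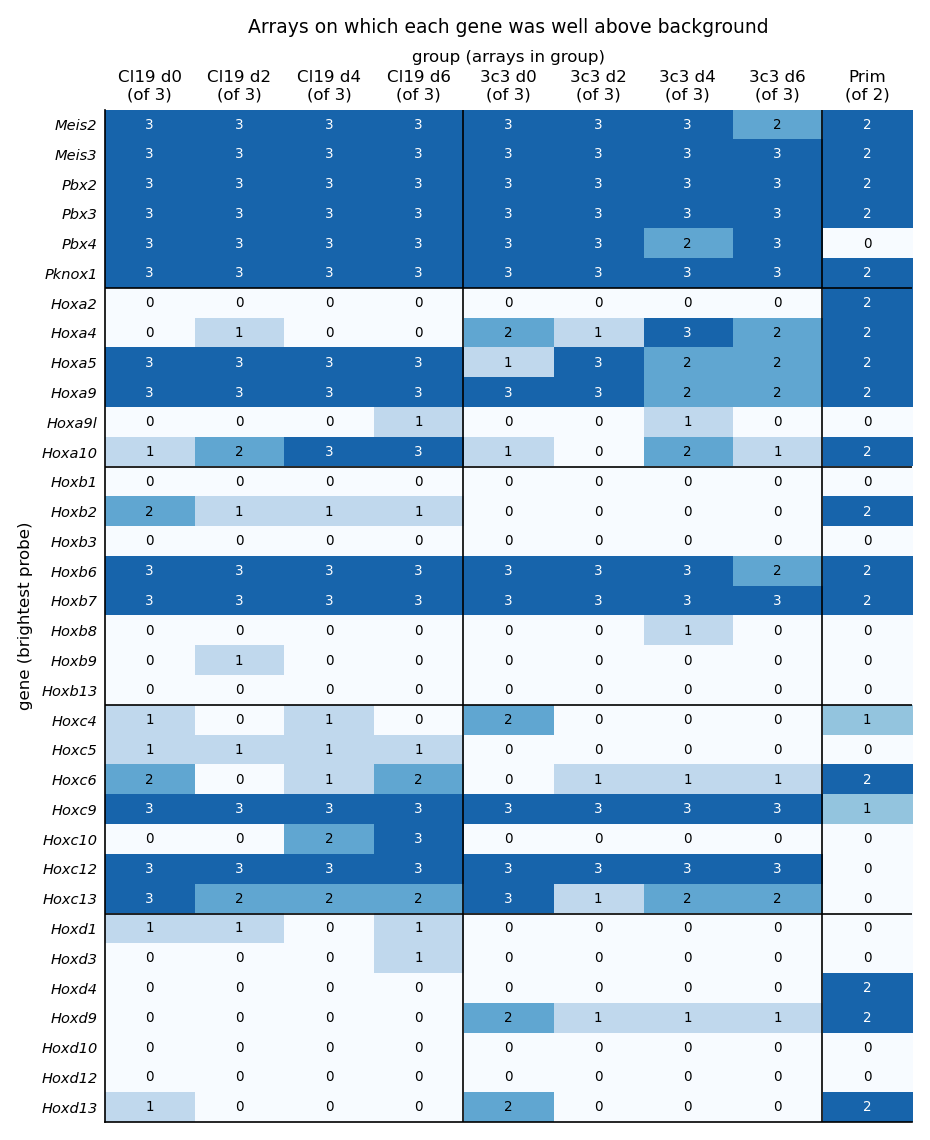
Number of arrays on which each of the 34 genes (vertical axis, brightest probe) was well above background in each of the 9 groups (horizontal axis, with the arrays in a group); darker cells mark a larger share. Cluster D genes fill both arrays of primary SMC RNA at *Hoxd4*, *Hoxd9* and *Hoxd13*, and *Hoxc9* and *Hoxc12* fill every rMAPC group.

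Of the 34 members, 22 were tested. The 12 not tested were *Hoxa9l*, *Hoxb1*, *Hoxb3*, *Hoxb8*, *Hoxb9*, *Hoxb13*, *Hoxc4*, *Hoxc5*, *Hoxd1*, *Hoxd3*, *Hoxd10* and *Hoxd12*. Where some array of the group with the lower signal missed that call, the fold of a gene is a lower bound. The mean of the brighter group is then divided by that of the other group, in which each array counts with its own value or, if higher, with the lowest signal that any probe well above background had on it. No fold is given where the brighter group was not measured on all its arrays either, or where the bound is under 1.

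From d0 to d6, 10 of the 22 tested members changed in Cl19 and 8 in 3c3, by limma with a Benjamini-Hochberg adjusted p below 0.05. Of all tested probes, 52.2% changed in Cl19 and 48.2% in 3c3, so the members' shares were below the background. In Cl19, 4 members were higher (22% of all probes) and 6 lower (30.3%). In 3c3, 4 were higher (19.7%) and 4 lower (28.6%). Scaling by the 75th percentile turned the 3c3 split to 5 higher and 3 lower. The authors' table without normalization gave, of 7 calls in Cl19, 4 with a rise and 3 with a fall, and of 8 calls in 3c3, 6 and 2. In Cl19, 6 members were called with normexp correction and 6 without replicate 3 of d0. In 3c3, 4 were called without replicate 2 of d0 and 5 without replicate 1 of d6. The 3c3 calls of *Hoxa5*, *Hoxc12* and *Hoxd9* were lost without the slide of replicate 3. The change differed between the lines for 2 members (17.4% of all probes), namely *Pbx3* and *Hoxc12*, and for 4 with the slide as a block, which added *Hoxa4* and *Hoxc10*. Without the slide of 3c3 replicate 3, *Pbx3* alone was called. The arrays of d0 and d6 did not overlap for 13 members in Cl19 (62.6% of all probes) and for 7 in 3c3 (55%). The median change of the tested members was -0.47 in Cl19, beside -0.20 over all probes, and 0.04 in 3c3, beside -0.21. The probe of *Hoxc13* passed the filter on dim probes only through the d0 groups, that of *Hoxc10* only through Cl19 d6, and those of *Hoxa2*, *Hoxb2*, *Hoxc6*, *Hoxd4*, *Hoxd9* and *Hoxd13* only through primary SMC RNA. Counts over tested members are therefore a description. With normexp correction, all 10 called changes of Cl19 and all 8 of 3c3 were smaller in size, at most 1.31 and 2.34, so the folds below hold for quantile-normalized values.

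**Figure D2:**
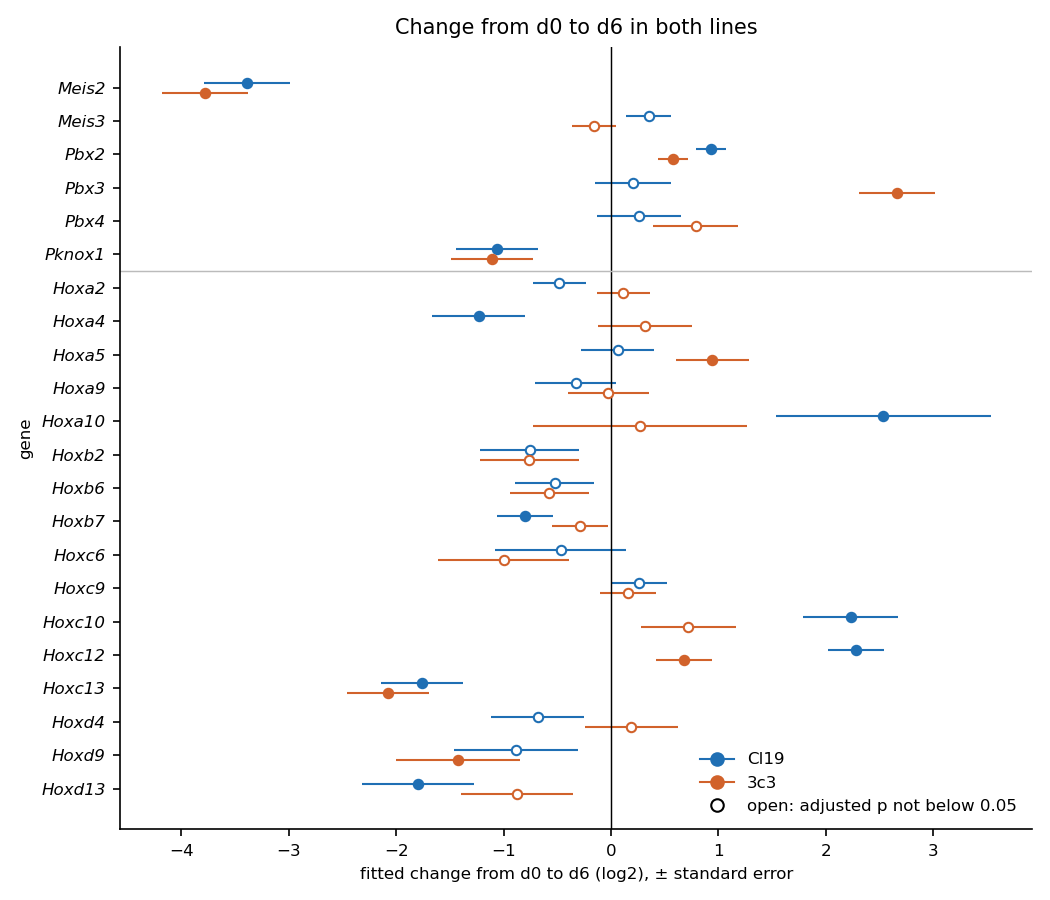
Fitted change from d0 to d6 (horizontal axis, log2, with standard errors as bars) for the 22 tested genes (vertical axis) in Cl19 (blue) and 3c3 (orange); filled points passed the threshold of 0.05. *Meis2* lay lowest in both lines, at -3.38 and -3.78. *Pbx3* lay at 2.66 in 3c3 and at 0.21 in Cl19.

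Of the cofactor genes, *Meis2* fell in both lines, *Pbx3* rose in 3c3, *Pbx2* rose in both by a small amount, and *Pknox1* fell in both. *Meis2* encodes a TALE protein that binds DNA with Pbx and Hox partners and helps to keep Pbx in the nucleus. Its levels in Cl19 were 7.0, 7.07 and 7.28 on d0, 6.72, 6.06 and 6.5 on d2, 4.35, 4.89 and 3.95 on d4, and 4.15, 3.34 and 3.71 on d6. In 3c3 they were 6.62, 7.12 and 6.86 on d0, 6.86, 6.79 and 6.63 on d2, 6.13, 5.58 and 5.17 on d4, and 4.12, 3.33 and 1.81 on d6. Primary SMC RNA had 8.20 on both arrays. By this probe, the d4 and d6 arrays lay below all d0 arrays in both lines, and the primary SMC arrays lay above every rMAPC array. *Meis2* fell by 3.38 (SE 0.40) on the log2 scale in Cl19, a 10.4-fold change (limma, adjusted p = 7.66e-07). In 3c3 it fell by 3.78 (SE 0.40), at least 7.91-fold, with 2 of 3 d6 arrays well above background (adjusted p = 3.3e-07 by limma). The second *Meis2* probe changed by -3.65 and -2.92. In primary SMC RNA, however, its mean was 3.55 with no array well above background, beside 3.83 on d0 of Cl19 and 3.16 on d0 of 3c3.

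*Meis3*, a related Pbx partner, kept a high signal throughout. Its levels in Cl19 ran from 10.58 to 10.69 on d0, from 11.04 to 11.35 on d2, from 10.25 to 10.88 on d4 and from 10.89 to 11.15 on d6. In 3c3 they ran from 10.81 to 10.96 on d0, were at most 11.30 on d2, and ran from 10.20 to 10.91 on d4 and from 10.27 to 11.22 on d6. The d6 change was 0.35 in Cl19 (SE 0.21, adjusted p = 0.17 by limma) and -0.16 in 3c3 (SE 0.21, adjusted p = 0.567). Over all days, *Meis3* passed limma's F-test in Cl19 (adjusted p = 0.0328).

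Markers of other cell types moved over the same days. The fibroblast list (*Dcn*, *Lum*, *Pdgfra*, *Col1a1*) had 2 of 4 genes well above background on each Cl19 array of d0 and 4 of 4 on d6, with a summed level, given as the log2 of the sum of linear signals, of 12.28 to 12.42 on d0 and 13.23 to 13.90 on d6. In 3c3 *Dcn* and *Lum* were on no array of d0 or d6, and the sum went from 12.15 to 12.35 on d0 to 10.59 to 11.73 on d6. The neural genes *Tubb3*, *Map2* and *Sox10* summed to 8.70 to 8.98 on d0 and 11.61 to 12.58 on d6 of Cl19, with 2 of the 3 on every array at both times and *Map2* on no array. Their sums in 3c3 were 9.19 to 9.93 and 8.36 to 10.61. The endothelial list (*Pecam1*, *Cdh5*, *Kdr*, *Tek*, *Vwf*) summed to 7.74 to 8.02 on d0 and 5.66 to 6.23 on d6 of Cl19. In 3c3 its sums were 6.90 to 7.21 and 6.54 to 7.07. The undifferentiated rMAPC and primitive endoderm list (*Pou5f1*, *Gata4*, *Gata6*, *Sox17*, *Foxa2*, *Sox7*) went from 15.18 to 15.30 to 13.94 to 14.54 in Cl19. Its 3c3 sums were 15.29 to 15.43 and 14.81 to 14.90. The part of these lists in the changes of the members was not tested. The smooth muscle list had 6 genes on the array, and 5 of them were higher on d6 in both lines, *Tagln* among them at 93.1-fold and 61.7-fold. *Myocd* changed by 0.05 in Cl19 (adjusted p = 0.92) and was lower in 3c3 (-1.20, adjusted p = 0.00402), by limma. It was well above background on no array of Cl19 d0 or of 3c3 d6, so these sizes rest on signals near background.

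*Pbx2*, a broadly expressed Pbx gene, read 8.62, 8.77 and 8.86 on d0 and 9.66, 9.65 and 9.72 on d6 of Cl19. In 3c3 it read 8.87, 8.95 and 9.01 on d0 and 9.42, 9.55 and 9.60 on d6. In each line no d6 value reached down to a d0 value. The rise was 0.93 (SE 0.14), or 1.9-fold, in Cl19 (limma, adjusted p = 1.17e-05), and 0.58 (SE 0.14), or 1.49-fold, in 3c3 (adjusted p = 0.00173). Levels on d2 and d4 lay between 8.71 and 9.43 in the 2 lines together.

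*Pbx3*, another Pbx gene, rose in 3c3 and not in Cl19. In 3c3 its levels were 8.52, 8.42 and 8.79 on d0, 9.09, 8.88 and 9.29 on d2, 10.20, 11.60 and 11.21 on d4, and 10.48, 11.76 and 11.46 on d6. In Cl19 they were 8.90, 8.55 and 8.90 on d0, 9.14, 8.91 and 9.0 on d2, 10.38, 8.87 and 9.99 on d4, and 9.05, 9.01 and 8.91 on d6. In 3c3 the arrays of d4 and d6 lay above all arrays of d0 and d2, while in Cl19 the high arrays were 2 of the 3 on d4. The rise to d6 in 3c3 was 2.66 (SE 0.35), or 6.31-fold (limma, adjusted p = 5.3e-06), against 0.21 (SE 0.35) in Cl19 (adjusted p = 0.655). The difference between the lines was -2.45 (SE 0.50, limma adjusted p = 0.0016). The other *Pbx3* probes changed by 2.52 and 2.36 in 3c3 and by 0.31 and 0.08 in Cl19. The macrophage and blood list (*Ptprc*, *Cd68*, *Csf1r*, *Cd14*) had 3 of 4 genes on every 3c3 array of d0 and d6 and summed to 7.81 to 8.09 on d0 and 9.66 to 11.01 on d6, with its defining gene *Ptprc* on no array. The part of this list in the *Pbx3* result was not tested.

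*Pbx4* and *Pknox1* had smaller differences. *Pknox1* (Prep1), a Meis-related protein that pairs with Pbx, read 5.37, 6.24 and 5.79 on d0 and 4.72, 5.06 and 4.42 on d6 of Cl19. Its 3c3 levels were 5.95, 6.77 and 5.19 on d0 and 4.39, 5.24 and 4.97 on d6. The groups overlapped in 3c3 and not in Cl19. The fall was 2.09-fold in Cl19 (limma change -1.06, SE 0.38, adjusted p = 0.0252) and 2.15-fold in 3c3 (-1.11, SE 0.38, adjusted p = 0.0221). The Cl19 call was lost without replicate 2 or 3 of d0 or replicate 1 or 3 of d6, and the 3c3 call without replicate 2 of d0 or replicate 1 of d6. Both were lost in the authors' table, and the Cl19 call also with normexp correction. Without the slide as a block, *Pknox1* did not pass limma's F-test over days in Cl19 (adjusted p = 0.0761) or in 3c3 (adjusted p = 0.056). *Pbx4* read 5.32, 5.14 and 5.30 on d0 and 5.75, 6.09 and 6.28 on d6 of 3c3, with values of 4.36 to 4.77 on d2 and d4. Its d6 arrays lay above those of d0, but the change of 0.79 (SE 0.39) did not pass (limma, adjusted p = 0.108). *Pbx4* passed the F-test over days in 3c3 (adjusted p = 0.0119 by limma).

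**Figure D3:**
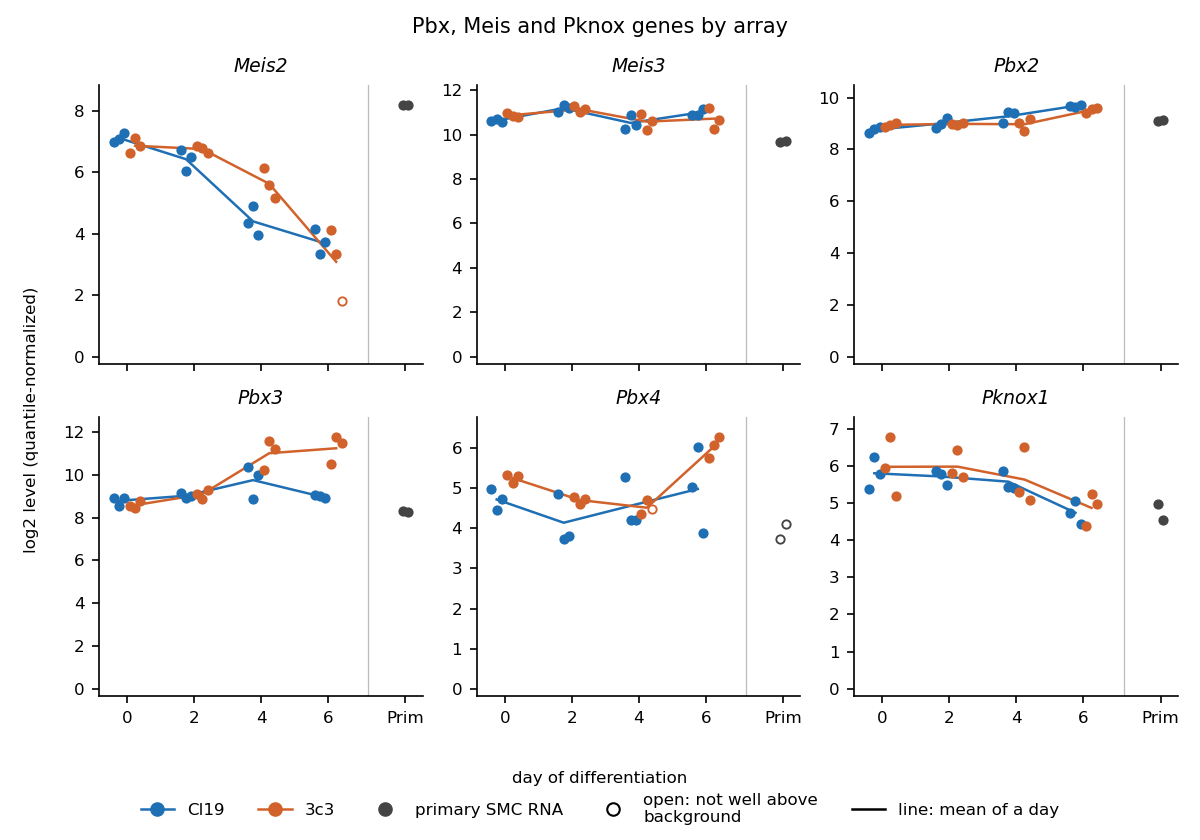
Level of the 6 cofactor genes on each array (vertical axes, log2) by day of differentiation (horizontal axis) in Cl19 (blue) and 3c3 (orange), with primary SMC RNA in grey; lines join the means of days and open points were not well above background. *Meis2* fell in both lines, and *Pbx3* reached 10.48 to 11.76 on d6 of 3c3.

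In cluster C, *Hoxc12* was called higher on d6 in both lines. The probes of this cluster lie on chromosome 7 in the order *Hoxc13*, *Hoxc12*, *Hoxc10*, *Hoxc9*, *Hoxc6*, *Hoxc5* and *Hoxc4*, at 10.9, 43.2, 56.5, 83.1, 86.3 and 107.3 kb from the *Hoxc13* probe. *Hoxc9*, a thoracic gene known for setting motor neuron columns in the spinal cord, read 8.67, 8.27 and 8.31 on d0, 7.63, 8.11 and 8.04 on d2, 7.12, 8.13 and 7.51 on d4, and 8.62, 8.72 and 8.68 on d6 of Cl19. Its 3c3 levels were 8.86, 8.32 and 8.56 on d0, 7.5, 7.09 and 7.27 on d2, 8.63, 7.76 and 8.11 on d4, and 9.08, 8.70 and 8.42 on d6. It dipped on d2 in both lines, where no array overlapped those of d0, and was back at the d0 level on d6. In Cl19 the d4 arrays also lay below those of d0. The d2 fall was not called in Cl19, but *Hoxc9* passed limma's F-test over days there (adjusted p = 0.00525). The d2 fall in 3c3 was 2.45-fold (limma change -1.29, SE 0.26, adjusted p = 0.00128). The d6 changes of 0.26 and 0.16 (SE 0.26 each) did not pass.

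*Hoxc12* lies near the tail end of the code. In Cl19 it read 5.68, 4.93 and 5.16 on d0, 4.60, 5.66 and 4.79 on d2, 6.81, 7.02 and 7.45 on d4, and 7.6, 7.69 and 7.32 on d6. In 3c3 it read 5.94, 6.05 and 6.15 on d0, 4.15, 4.18 and 4.06 on d2, 5.63, 5.05 and 5.42 on d4, and 7.23, 6.56 and 6.39 on d6. Thus 3c3 went down on d2 before it rose, with no overlap between any of its days, while in Cl19 the arrays of d0 and d2 overlapped. From d0 to d6 the rise was 2.28 (SE 0.26), or 4.86-fold, in Cl19 (limma, adjusted p = 5.93e-07) and 0.68 (SE 0.26), or 1.6-fold, in 3c3 (adjusted p = 0.0395). The call in 3c3 was lost without the slide of replicate 3 and without replicate 1, 2 or 3 of d0 or replicate 1 of d6. The d2 fall in 3c3 was 3.77-fold (limma change -1.92, SE 0.26, adjusted p = 3e-05). The difference between the lines in the d6 change was 1.60 (SE 0.37, limma adjusted p = 0.00463), and without the slide of 3c3 replicate 3 it was 1.38 (adjusted p = 0.0594).

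*Hoxc13*, the gene at the 5′ end of the cluster, is known for its role in hair and nail. It read 4.25, 4.23 and 4.32 on d0, 3.12, 2.14 and 3.04 on d2, 3.04, 1.94 and 3.14 on d4, and 3.18, 2.65 and 1.69 on d6 of Cl19. Its 3c3 levels were 4.84, 4.52 and 4.92 on d0, 2.69, 3.10 and 2.71 on d2, 3.11, 3.93 and 4.01 on d4, and 3.05, 2.60 and 2.39 on d6. In both lines every d0 array lay above every later one. On d2 the Cl19 level was lower by at least 2.83-fold, and that of 3c3 by at least 3.73-fold. On d6 it was at least 3.35-fold and at least 2.78-fold lower, with 2 of 3 d6 arrays well above background in each line. Since this probe was tested only because it was bright on d0, these values are a description with no test. *Hoxc10*, a lumbar gene between *Hoxc9* and *Hoxc12*, was dim. It read 0.52, 0.45 and 0.61 on d0, 0.46, 1.46 and 0.47 on d2, 2.24, 2.34 and 2.35 on d4, and 3.01, 2.92 and 2.33 on d6 of Cl19. In 3c3 no array of any day was well above background, with levels between 0.44 and 2.29. On d6 of Cl19 it was at least 1.32-fold above d0 (fitted change 2.23). This too is a description, since the probe was tested only through Cl19 d6. *Hoxc6* read from 0.17 to 3.11 on the rMAPC arrays and, without the slide as a block, did not pass over time in either line.

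**Figure D4:**
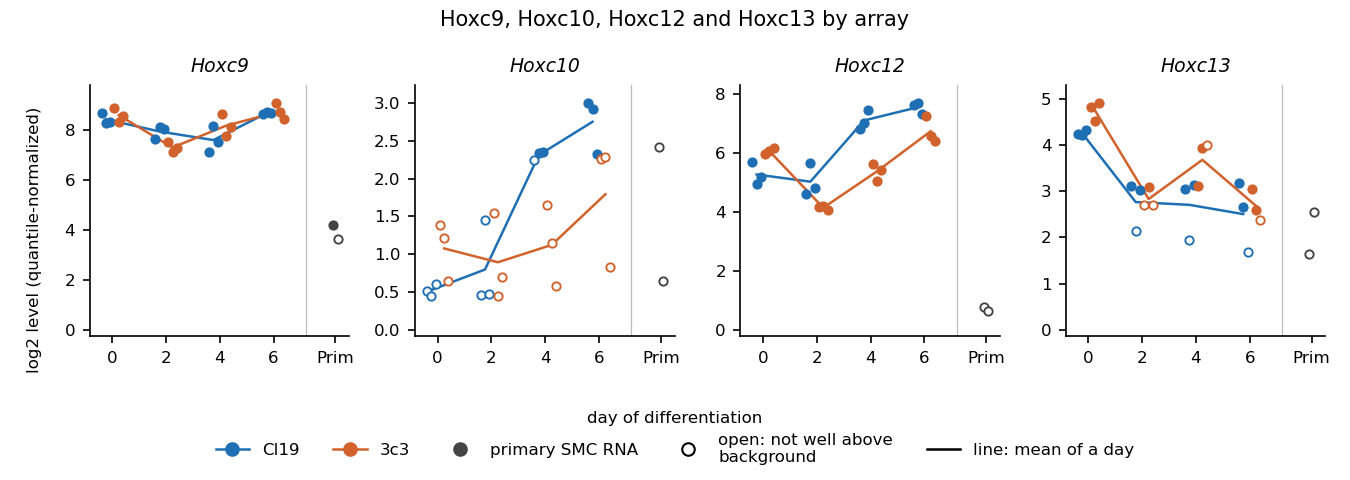
Level of *Hoxc9*, *Hoxc10*, *Hoxc12* and *Hoxc13* on each array (vertical axes, log2, each with its own range) by day of differentiation (horizontal axis) in Cl19 (blue), 3c3 (orange) and primary SMC RNA (grey); lines join means and open points were not well above background. *Hoxc12* reached 7.32 to 7.69 on d6 of Cl19 and 6.39 to 7.23 in 3c3, while *Hoxc13* was highest on d0.

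On d2, 1 member was called in Cl19 (*Hoxc13*, tested only through d0, with 22.6% of all probes called) and 4 in 3c3 (*Hoxa4*, *Hoxc9*, *Hoxc12*, *Hoxc13*, with 19.1% of all probes). In Cl19 this count was 3 without replicate 1 of d2, with *Hoxa10* and *Hoxd13* added, and 0 without replicate 2. With the slide as a block it was 3 (fixed term) or 4 (random term). The F-test over the days called 10 members in Cl19 (54.3% of all probes) and 9 in 3c3 (50%). *Hoxc9*, *Hoxc12*, *Hoxc13*, *Hoxa4*, *Meis2* and *Pbx2* were called in both. With the slide as a block, these counts were 16 and 13. F-test results of single genes are given for the fit without the block, so a gene that did not pass there may pass with it.

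In cluster A, *Hoxa10*, known for patterning the uterus and the lumbar spine, moved in Cl19. It read 2.41, 1.31 and 2.45 on d0, 1.43, 6.06 and 5.32 on d2, 4.48, 5.24 and 4.63 on d4, and 4.70, 3.55 and 5.52 on d6 of Cl19. In 3c3 it lay between 0.18 and 3.39 on all 12 arrays. The low Cl19 array of d2 was the one near 3c3, and the d2 mean was 4.27 with it and 5.69 without it. The rise to d6 in Cl19 was at least 4.38-fold (limma change 2.53, SE 1.00, adjusted p = 0.0398), and the second *Hoxa10* probe rose by 3.69 (adjusted p = 0.00142). The call of the brightest probe was lost in 8 of 18 alternatives, among them leaving out any array of d0 or replicate 1 or 3 of d6. By limma's F-test over days without the slide as a block, this probe did not pass in Cl19 (adjusted p = 0.0796). The difference from 3c3 in the d6 change did not pass (2.26, SE 1.41, adjusted p = 0.34 by limma).

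*Hoxa4* differed between the lines on d0. It read 1.74, 2.00 and 2.29 in Cl19 and 3.86, 4.06 and 3.27 in 3c3, where it was well above background on no array and on 2 arrays. The groups did not overlap, and the difference was -1.72 (SE 0.43, limma adjusted p = 0.0325), the single one called among the members with 3.07% of all probes called. It was lost without the slide of 3c3 replicate 3, without any Cl19 array of d0 and without replicate 1 or 2 of 3c3 d0. Later it read 4.91, 4.89 and 4.61 on d4 of 3c3, its highest rMAPC values, and 0.46, 1.49 and 0.38 on d6 of Cl19. *Hoxa4* was called lower on d6 of Cl19 (-1.23, SE 0.43, limma adjusted p = 0.0226), but no array of either day was well above background, and the call was lost in 7 of 18 alternatives, among them without replicate 3 of d0 or replicate 1 or 3 of d6. *Hoxa5*, which acts in the lung and the neck and upper thoracic skeleton, read 3.47, 2.57 and 2.88 on d0 and 3.99, 3.77 and 3.98 on d6 of 3c3. The rise of 0.94 (SE 0.34, limma adjusted p = 0.0272) rested on 1 and 2 arrays well above background. It was lost without the slide of replicate 3, replicate 2 or 3 of d0, or replicate 1 or 3 of d6. Without the slide as a block, *Hoxa5* did not pass limma's F-test over days in 3c3 (adjusted p = 0.0824). In Cl19 *Hoxa5* lay between 3.16 and 4.32 on all 12 arrays by its brightest probe, while the second *Hoxa5* probe was well above background on none of them, with group means of 0.17 to 0.98. *Hoxa9* lay between 2.38 and 4.41 on the 24 rMAPC arrays and did not pass on d6 in either line.

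In cluster B, *Hoxb6* lay between 3.08 and 5.09 and *Hoxb7* between 3.74 and 5.82 on the rMAPC arrays. *Hoxb7* read 5.16, 4.78 and 5.37 on d0 and 4.39, 3.74 and 4.78 on d6 of Cl19, with overlapping arrays. This was a 1.74-fold fall (limma change -0.80, SE 0.26, adjusted p = 0.0144), lost without replicate 3 of d0, replicate 2 of d6 or any normalization between arrays. In 3c3 the change was -0.29 (SE 0.26, adjusted p = 0.384 by limma). *Hoxb2*, a hindbrain gene, was at or below 3.13 on every rMAPC array and well above background on 5 of 24. In cluster D, *Hoxd13*, the gene of the digits, was well above background on 3 of 24 rMAPC arrays, all of d0. It read 1.59, 2.37 and 2.50 on d0 and 0.40, 0.33 and 0.35 on d6 of Cl19. The Cl19 change of -1.79 (SE 0.52, limma adjusted p = 0.00678) has no fold, since 1 of the 3 d0 arrays was well above background, and it was lost with normexp correction and with a floor under dim values. *Hoxd9* was well above background on 5 of 24 rMAPC arrays, all of 3c3. It read 3.29, 2.60 and 2.24 on d0 and 2.49, 1.16 and 0.22 on d6 of 3c3, with overlap, and was called lower (-1.42, SE 0.58, limma adjusted p = 0.0488). That call was lost in 11 of 18 alternatives, among them leaving out the slide of replicate 3, replicate 1 or 2 of d0, or replicate 2 or 3 of d6. Without the slide as a block, *Hoxd9* did not pass limma's F-test over days in 3c3 (adjusted p = 0.0836).

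Against d6 of Cl19, 18 of the 22 tested members differed in primary SMC RNA, with 71.4% of all probes called, 12 of them higher (32.8% of all probes) and 6 lower (38.6%). Against d6 of 3c3 there were 19 (71.5%), 13 higher (33.4%) and 6 lower (38.1%). Both comparisons share the primary SMC arrays. The 6 genes that passed the filter only through primary SMC RNA are among the higher ones in both, so these counts are a description. Arrays did not overlap for 17 members (81.5% of all probes) and for 19 (80.7%). Quantile normalization put the median difference over all probes at -0.13 in both comparisons. With scaling by the 75th percentile this median was 0.21, and in the authors' table without normalization it was -2.17 for Cl19 and -2.09 for 3c3. In that table the split was 12 higher and 9 lower against each line. No member called in either comparison changed its direction under these 2 scalings. The *Hoxa10* call against 3c3 d6 was lost in the authors' table (1.35). With scaling by the 75th percentile, 16 members were called against Cl19 d6, and *Hoxc10* (-0.12) and *Pbx4* (-0.75) were lost. Sizes did change, so the folds below hold for quantile-normalized values. Against Cl19 d6, the difference of *Hoxb7* was 5.13 after quantile normalization and 2.61 in the authors' table, and that of *Hoxa9* was 5.56 and 3.05. With normexp correction, 18 of the 18 called differences from Cl19 d6 and 18 of the 19 from 3c3 d6 were smaller, down to 0.13 and 0.42 in size and at most 3.23 and 3.04.

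In cluster A, *Hoxa4* read 9.23 and 9.32 in primary SMC RNA, above all rMAPC arrays (highest 4.91). It was at least 163-fold higher than Cl19 d6 (difference 8.50, SE 0.49, limma adjusted p = 6.85e-12) and at least 35.8-fold higher than 3c3 d6. The probe named *Hoxa9*, with the accession of *Hoxa7*, read 8.50 and 8.68. This was 47.3-fold above Cl19 d6 (5.56, SE 0.42, limma adjusted p = 4.91e-10) and at least 30.7-fold above 3c3 d6, where it was on 2 of 3 arrays. The probe described as *Hoxa9* (*Hoxa9l*, not tested) read 2.31 and 2.63 in primary SMC RNA, neither well above background. *Hoxa5* read 6.98 and 7.11, which was 9.83-fold above Cl19 d6 (difference 3.30) and at least 8.34-fold above 3c3 d6. This size varied with the processing: the difference from Cl19 d6 was 0.84 in the authors' table and 5.47 over all probes, and the second probe had a mean of 7.82 in primary SMC RNA and 0.18 on d6 of Cl19. *Hoxa2*, a gene of the second branchial arch, read 5.78 and 5.40 and was on no rMAPC array, where it read at most 1.78. The bounds were at least 12.6-fold over Cl19 d6 and at least 6.8-fold over 3c3 d6. *Hoxa10* read 5.71 and 5.51. It did not differ from Cl19 d6 beyond the spread (1.02, SE 1.12, limma adjusted p = 0.422) but was at least 5.24-fold above 3c3 d6 (adjusted p = 0.00369).

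Cluster B followed with *Hoxb2* at 8.88 and 8.68, at least 97.7-fold over Cl19 d6 and at least 61.9-fold over 3c3 d6 (a description, as the probe was tested only through primary SMC RNA). *Hoxb7* read 9.38 and 9.5, which was 35.1-fold above Cl19 d6 and 18.2-fold above 3c3 d6. *Hoxb6* read 7.12 and 7.2, 12.9-fold above Cl19 d6 and at least 10.8-fold above 3c3 d6. As printed above, the *Hoxb6* and *Hoxb7* probes are alike in most bases, and so is that of *Hoxc6*, which read 5.64 and 5.90. *Hoxc6* was at least 11.6-fold above Cl19 d6 and at least 7.05-fold above 3c3 d6. All these primary SMC values lay above every rMAPC array.

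*Hoxc9* and *Hoxc12* of cluster C went the other way. *Hoxc9* read 4.17 and 3.62 in primary SMC RNA, with 1 of 2 arrays well above background, below every rMAPC array (lowest 7.09). It was at least 27.4-fold lower than in Cl19 d6 (-4.78, SE 0.29, limma adjusted p = 1.52e-11) and at least 28.6-fold lower than in 3c3 d6. *Hoxc12* read 0.78 and 0.62, not well above background, and was at least 13.6-fold lower than Cl19 d6 (-6.84, SE 0.29, limma adjusted p = 9.46e-14) and at least 7.75-fold lower than 3c3 d6. *Hoxc13* read 1.63 and 2.56 and did not pass against either line. *Hoxc10* read 2.41 and 0.64, neither well above background, and no fold is given. The fitted difference from Cl19 d6 was -1.23, a description since the probe was tested only through that group, and with a floor under dim values its sign turned (1.02). It was -0.12 with scaling by the 75th percentile.

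In cluster D, *Hoxd9* read 7.22 and 6.99, *Hoxd13* 4.92 and 5.48, and *Hoxd4* 4.48 and 4.26. All 6 values lay above the rMAPC arrays of the same gene. *Hoxd9* was at least 36.1-fold above Cl19 d6 and at least 18.2-fold above 3c3 d6. *Hoxd13* was at least 9.65-fold and at least 5.19-fold higher, and *Hoxd4* at least 5.42-fold and at least 2.92-fold. All 3 probes were tested only through primary SMC RNA, so their folds are a description, as are those of *Hoxa2* and *Hoxc6*. For the paralogs whose probes share 35 of 47 bases, *Hoxd9* was thus higher and *Hoxc9* lower in primary SMC RNA.

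**Figure D5:**
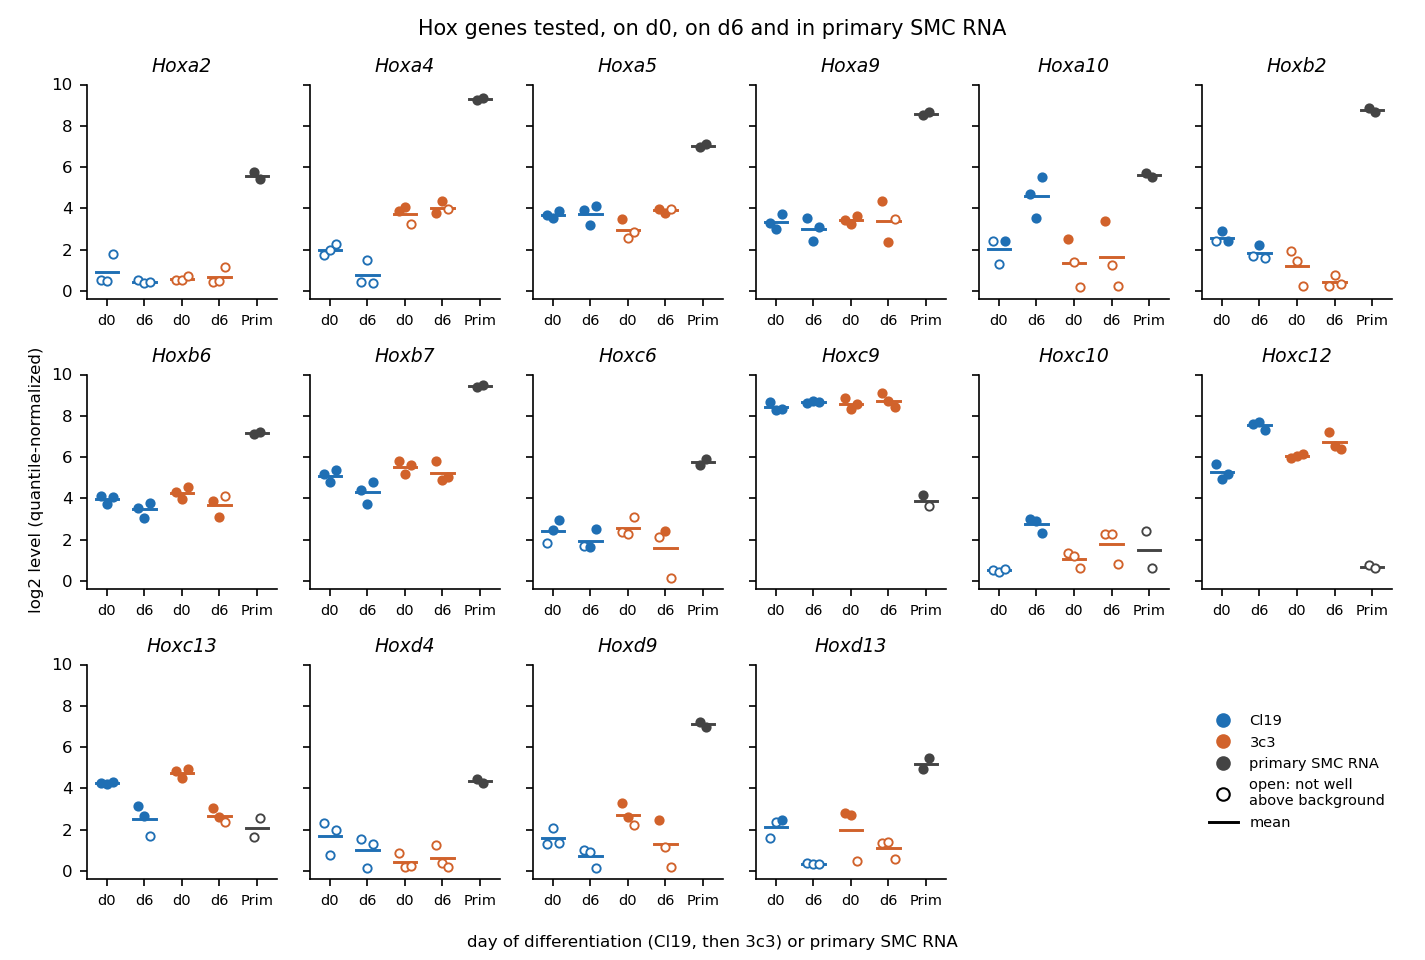
Level of the 16 tested Hox genes on each array (vertical axes, log2) on d0 and d6 of Cl19 (blue) and 3c3 (orange) and in primary SMC RNA (grey, 2 arrays); short lines are means and open points were not well above background. Primary SMC RNA lies above the rMAPC arrays at *Hoxa4*, *Hoxb2* and *Hoxd9*, and below them at *Hoxc9* and *Hoxc12*.

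Among the cofactors, *Meis2* by its brightest probe was 22.2-fold higher in primary SMC RNA than in Cl19 d6 and at least 20-fold higher than in 3c3 d6 (limma adjusted p = 2.83e-08 and 3.78e-09). *Pbx3* read 8.31 and 8.27, which was 7.72-fold below 3c3 d6 (adjusted p = 1.58e-06) and not called against Cl19 d6 (adjusted p = 0.117), by limma. *Meis3* read 9.68 and 9.73, 2.42-fold below Cl19 d6 and 2.02-fold below 3c3 d6. *Pbx2* read 9.09 and 9.14, 1.47-fold and 1.32-fold below. In the authors' table, the differences from Cl19 d6 and 3c3 d6 were larger, at -3.53 and -3.32 for *Meis3* and -2.92 and -2.76 for *Pbx2*. *Pbx4* was not well above background at 3.73 and 4.10, at least 1.96-fold below Cl19 d6 and at least 4.09-fold below 3c3 d6, and *Pknox1* did not pass against either. The *Pbx4* call against Cl19 d6 was lost in 9 of 15 alternatives, among them without either primary SMC array, and that of *Pbx2* against 3c3 d6 in 5, also among them without either.

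Markers of other cell types differed along with these genes, though not every list differed from both lines. All 4 fibroblast genes were on both primary SMC arrays, with sums of 16.00 to 16.07, and so were all 4 macrophage and blood genes, *Ptprc* included, with sums of 9.80 to 9.86. In Cl19 d6 the macrophage and blood sums were 7.51 to 7.92. In 3c3 d6 they were 9.66 to 11.01, a range that holds the sums of primary SMC RNA. None of the 5 endothelial genes was on both primary SMC arrays, and *Pecam1*, *Kdr* and *Tek* were on neither (sums 4.70 to 5.26). All 6 smooth muscle genes were on both primary SMC arrays. The part of the fibroblast and blood lists in the Hox differences was not tested.

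The other genes around this system were taken from 2 lists. Of 10 other TALE homeobox and partner genes, 8 were on the array and 5 were tested. On d6, 4 of the 5 were called in each line, beside 52.2% of all probes in Cl19 and 48.2% in 3c3, all with a rise in Cl19, whereas in 3c3 there were 3 rises and 1 fall. Called in both were *Tgif1*, a repressor that binds Smads (2.85 in Cl19 and 1.67 in 3c3), the Iroquois gene *Irx3* (at least 9.89-fold and at least 4.67-fold higher) and *Pbxip1*, which encodes a Pbx-binding protein (1.12 and 2.02). The list of Hox regulators held 13 symbols, of which *Kmt2a* and *Mll1* name the same gene. Of these symbols, 10 were on the array and 9 were tested. On d6, 6 were called in Cl19 and 4 in 3c3, where the shares of all probes were the same as above. Called in both were *Cdx2*, a caudal factor that activates Hox genes (at least 3.07-fold and at least 10.4-fold higher), and, all lower, *Wdr5* of the trithorax complexes (-0.46 and -0.96), *Eed* of Polycomb repressive complex 2 (-0.80 and -0.89) and the insulator gene *Ctcf* (-0.86 in both). These changes are those of limma on the log2 scale from d0 to d6.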

How the data were processed

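Total RNA of 24 rMAPC arrays and 2 arrays of primary SMC RNA was labeled with Cy3 and hybridized to Agilent 1-colour rat arrays. The authors deposited, per array, the intensity of every feature after the background subtraction of Agilent Feature Extraction 10.1.1.1 (per the labels). They also deposited a log2 table, which equals the log2 of these intensities within 5.2e-14 and is therefore not normalized between arrays. Groups were taken from the labels. Here, log2 intensities of 43379 gene features were quantile-normalized over 26 arrays, as in the study's methods, features marked as outliers were left out, and features of a probe were averaged. A probe was well above background where at least 0.5 of its features were. Quantile normalization removes a change shared by most genes, and log2 values of dim probes vary widely between arrays. A single linear model (limma 3.58.1, R 4.3.3) held the 26 arrays in 9 groups, and its p-values were adjusted after Benjamini and Hochberg over 24442 probes, with 0.05 as threshold. The fit was tested on simulated data. Python 3.11.15 read the files and matplotlib drew the figures.

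Some genes that the name pattern or a list held are not reported here and stand in no count or sum. Named were all other members, with each array's values for those called in a comparison between days, between the lines or against primary SMC RNA, and listed genes called in both lines on d6. The members and lists were chosen with earlier results of these data known. Replicate numbers pair the arrays, since the slide in the scanner files is the same for the days of 1 replicate of a line. The deviations of arrays of a slide from their group means correlated by over 0.1 in 34 of 36 pairs (lowest 0.06), and between d0 and d6 in 6 of 6. Names were matched to RefSeq by accession for 19 members, 1 of them under another symbol. Alternatives were scaling by the 75th percentile, normexp correction (offset 50), the authors' table, no filter, a floor, marked features kept, all probes of a gene, the methods' test, each line alone, the slide as a fixed or random block, and leaving out single arrays or the slide of 3c3 replicate 3. The last one for detection, and leaving out Cl19 d2 replicate 1 there, were chosen after seeing the data.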

Additional observations from a re-analysis of the deposited data

Results flagged for a closer look

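The change from d0 to d6 differed between the lines, by limma's test of the difference, for 2 members. *Pbx3* had a difference of -2.45 on the log2 scale (Cl19 minus 3c3), with the larger rise in 3c3. *Hoxc12* changed by 1.60 more in Cl19, and this one was lost without the slide of 3c3 replicate 3 (adjusted p = 0.0594). Each line is 1 clone, so that a difference between the lines is one between these clones, their ages and their slides, which cannot be told apart.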

How the results depend on the processing

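For single members, 849 results kept their direction and side of the threshold, 75 were no longer past it and 1 reversed: *Hoxc10* in primary SMC RNA against Cl19 d6, which was 1.02 with a floor under dim values. The calls of *Hoxc12*, *Meis2* and *Pbx2* on d6 of Cl19 held in every alternative recorded for single members. So did those of *Meis2*, *Pbx2* and *Pbx3* on d6 of 3c3 and the line difference of *Pbx3*. The methods' test was recorded for counts only, so it has no result for these calls. The d2 count of Cl19 (1) was 2 with the 75th percentile, 4 with normexp, 3 with the authors' table, 2 with a floor, 3 with all probes, 6 by the methods' test at its unadjusted threshold, 3 in a fit of the line alone and 2 without the slide of 3c3 replicate 3. By the methods' test, the d2 count of 3c3 (4) was 8 unadjusted and the d6 count of 3c3 (8) was 5 after adjustment. The d6 count of Cl19 (10) was 6 with normexp, and the line difference (2) was 1 without the slide of 3c3 replicate 3. The d0 difference between the lines (1) was 0 with normexp, the authors' table, no filter, the methods' test after adjustment or without the slide of 3c3 replicate 3, and 6 by that test unadjusted. With the replicate block as a fixed or random term (correlation 0.31), the counts became 3 and 4 (d2, Cl19), 4 and 4 (line difference) and 16 and 16 (over days, Cl19, 10 without it); it moved no other count by over 1.5 times. Leaving out single arrays gave 0 to 3 (d2, Cl19), 3 to 5 (d2, 3c3), 6 to 10 (d6, Cl19), 4 to 8 (d6, 3c3), 2 to 3 (line difference), 0 to 1 (d0), 16 to 18 and 18 to 19 (primary SMC RNA), 7 to 10 and 7 to 11 (over days). Members above local background by the scanner's weaker call numbered 23, 23 and 22 on d0, d2 and d4 of Cl19 and 21 and 20 on d2 and d4 of 3c3, and those well above background on at least 1 array 20 and 19 on d0 and d2 of Cl19 and 19 and 17 on d4 and d6 of 3c3. Without the slide of 3c3 replicate 3, 14 members were detected on d6. The causes were not tested. Signal over background limits the dim members: where a probe is near background, small folds cannot be seen.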

Other observations

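A probe that the name pattern did not take, RGD1305450, is described on the array as similar to Hox-C11 and lies between the *Hoxc12* and *Hoxc10* probes (chr7:141719975-141720034, rn4). It was looked at after the other values were seen. Its levels were 3.23, 2.83 and 2.76 on d0 and 5.69, 6.10 and 5.86 on d6 of Cl19. In 3c3 they were 2.13, 1.01 and 0.39 on d0, none well above background, and 6.34, 5.67 and 4.68 on d6. All d6 arrays lay above all d0 arrays of either line. Primary SMC RNA had 2.43 and 0.42, neither well above background.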
